A study of Rattus norvegicus with 6 samples.

Results

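Pseudogene clusters were the rows of the annotated array table whose locus type was Pseudogene, which gave 2026 of the 68842 transcript clusters left after removal of control probe sets. A transcript cluster is a set of probes for 1 annotated locus, most often 30 probes here, and the class was read from the deposited annotation, not from any signal. RNA of dorsal root ganglia, the clusters of sensory nerve cell bodies and glia beside the spinal cord, was hybridised to Affymetrix Rat Transcriptome Array 1.0 arrays, 1 array per rat. The 3 diabetic rats had received a single intraperitoneal injection of streptozotocin (STZ, a toxin for pancreatic beta cells) at 65 mg/kg, and the 3 control rats an equal volume of citrate buffer. All were male Sprague-Dawley rats of 180 to 220 g at assignment, age not given. Injected rats under 16.7 mM non-fasting glucose at 1 week were left out, and at 8 weeks the L3 to L6 ganglia of both sides were pooled within each rat, so a value averages all cells of these ganglia. The RNA input was 100 ng per array. Each array was 1 animal, and in pooled ganglia fewer cells of a type and less RNA per cell cannot be told apart.

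A pseudogene is a copy of a gene that has lost the ability to make the gene's product. Many arose when a messenger RNA was reverse transcribed and the intron-free copy inserted elsewhere in the genome, away from the parent's promoter. Genes whose RNA is plentiful in the germ line, such as those of ribosomal proteins and of glyceraldehyde-3-phosphate dehydrogenase (Gapdh), have left many such copies in mammals, and some copies are transcribed. Because copies can be nearly identical to their parent, a short array probe designed on a copy may also pair with RNA of the parent or of a sister copy. Which locus gave a signal was not tested.

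Here 3 pairs of sequences, each a ribosomal protein copy and its parent, are shown around their gene starts only. They are windows of 300 bases around the annotated gene starts in RefSeq on GRCr8, read 5′ to 3′ on the gene's strand. Of the members, 43 matched such a window by current symbol, and these 3 were the ribosomal protein copies that had a window of their own beside one of the parent. Capitals mark the longest stretch that the windows of a copy and its parent share.
Rbs10l2 (chr1:20767352-20767651, plus strand): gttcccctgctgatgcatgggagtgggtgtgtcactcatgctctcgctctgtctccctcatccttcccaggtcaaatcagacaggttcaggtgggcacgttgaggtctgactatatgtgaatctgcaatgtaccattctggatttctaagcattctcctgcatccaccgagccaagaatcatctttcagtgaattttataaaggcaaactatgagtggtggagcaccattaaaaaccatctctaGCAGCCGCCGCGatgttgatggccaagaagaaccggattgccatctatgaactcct
Rps10 (chr20:5700695-5700994, minus strand): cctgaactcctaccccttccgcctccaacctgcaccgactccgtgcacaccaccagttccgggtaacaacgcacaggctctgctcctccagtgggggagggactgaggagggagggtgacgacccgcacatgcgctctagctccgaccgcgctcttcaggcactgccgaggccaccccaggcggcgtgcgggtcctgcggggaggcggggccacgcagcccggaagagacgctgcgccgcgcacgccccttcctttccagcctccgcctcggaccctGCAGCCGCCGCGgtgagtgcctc
Rps12l8 (chr17:15448750-15449049, plus strand): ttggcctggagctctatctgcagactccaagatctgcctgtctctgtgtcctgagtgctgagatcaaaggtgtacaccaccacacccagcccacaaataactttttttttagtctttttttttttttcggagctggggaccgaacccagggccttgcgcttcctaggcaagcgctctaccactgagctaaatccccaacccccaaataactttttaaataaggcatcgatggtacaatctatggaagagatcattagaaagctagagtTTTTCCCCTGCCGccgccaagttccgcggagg
Rps12 (chr1:23499825-23500124, plus strand): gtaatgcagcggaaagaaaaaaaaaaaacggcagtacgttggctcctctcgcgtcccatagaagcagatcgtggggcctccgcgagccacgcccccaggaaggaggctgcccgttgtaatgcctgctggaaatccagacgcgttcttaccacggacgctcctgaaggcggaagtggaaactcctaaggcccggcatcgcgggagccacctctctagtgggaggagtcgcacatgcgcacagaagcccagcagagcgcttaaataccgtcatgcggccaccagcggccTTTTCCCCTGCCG
Rpl6-ps6 (chr17:15318475-15318774, minus strand): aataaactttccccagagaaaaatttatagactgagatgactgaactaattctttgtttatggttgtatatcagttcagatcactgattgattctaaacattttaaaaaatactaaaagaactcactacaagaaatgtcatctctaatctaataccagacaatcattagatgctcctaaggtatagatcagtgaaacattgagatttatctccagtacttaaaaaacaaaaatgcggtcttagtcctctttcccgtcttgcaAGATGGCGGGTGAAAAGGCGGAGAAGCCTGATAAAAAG
Rpl6 (chr12:41011641-41011940, minus strand): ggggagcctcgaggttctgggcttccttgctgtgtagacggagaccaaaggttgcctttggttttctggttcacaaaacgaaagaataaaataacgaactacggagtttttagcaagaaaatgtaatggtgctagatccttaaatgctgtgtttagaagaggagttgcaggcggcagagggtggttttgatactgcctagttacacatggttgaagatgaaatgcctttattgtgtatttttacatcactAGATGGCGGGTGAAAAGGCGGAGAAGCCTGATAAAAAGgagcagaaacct
The stretch shared by Rbs10l2 and Rps10 was 12 bases long, that of Rps12l8 and Rps12 13 bases and that of Rpl6-ps6 and Rpl6 38 bases. The last pair of stretches ran up to the final base of the Rps12 and the Rpl6-ps6 window, so their lengths are cut by the windows. In the copies Rbs10l2, Rps12l8 and Rpl6-ps6 the stretches began at base 245, 269 and 263 of the 300-base window. The windows thus end soon after the stretches begin, and the likeness of the rest of each copy to its parent is not shown. In Rps10, a protein of the small ribosomal subunit, the shared bases were followed by gtgagt, the letters with which many introns begin, and in the copy they ran straight on into atgttg. The dinucleotide CG, which reads the same on both strands, occurred 7 times in the Rbs10l2 window and 29 times in that of Rps10, 9 times in the Rps12l8 window and 25 times in that of Rps12, and 4 times in the Rpl6-ps6 window and 8 times in that of Rpl6. The median was 7 over 33469 gene windows and 22 over 65 ribosomal protein gene windows. RefSeq on GRCr8 lists these 3 copies as protein-coding, although the array's annotation classes them as pseudogenes.

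The groups overlapped in the array signals of all 3 copies. The Rbs10l2 cluster read 11.72, 12.35 and 12.09 (log2 signal) in the diabetic arrays, against 11.85, 11.69 and 11.62 in the control arrays. Its groups overlapped, since the lowest diabetic array lay below the highest control array. The difference, diabetic minus control, was 0.33 on the log2 scale (SE 0.18, limma adjusted p = 0.667). Rps12l8 read 11.23, 11.26 and 11.24 in diabetic arrays and 11.29, 10.46 and 11.01 in control arrays (difference 0.33, SE 0.20, limma adjusted p = 0.692). The diabetic arrays lay close together here, and control replicate 2 alone was low. Rpl6-ps6 read 11.46, 11.14 and 11.17 in diabetic arrays and 11.43, 10.89 and 11.04 in control arrays (difference 0.14, SE 0.17, limma adjusted p = 0.825). The coding clusters of the parents Rps10, Rps12 and Rpl6 differed by 0.34, 0.13 and 0.22 on the log2 scale (limma adjusted p = 0.623, 0.808 and 0.722).

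The class was heterogeneous. A symbol was given for 956 clusters, while 1070 had none, and for 616 a parent gene with a coding cluster on the array could be read from the symbol or description, 378 parents in all. Ensembl supplied 1107 of the loci, the Rat Genome Database 401 and AceView 267, and 247 were mouse transcripts placed on the rat genome. The median locus spanned 845 bases, with quartiles of 502 and 1421 bases. A current RefSeq entry was matched for 368 clusters, by symbol and not by position. Of these entries 311 were listed as pseudogene, 9 as transcribed pseudogene, 47 as protein-coding and 1 as lncRNA. Where a cluster bears its parent's symbol, the protein-coding entry is that of the parent gene. Examples are the clusters named Rps7 on chromosome 15 and Ppia on chromosome 7, so the 47 are not all loci now listed as coding. No coding cluster overlapped 1359 members, 396 overlapped a coding cluster on the other strand only and 271 overlapped one on the same strand. These positions had median differences of 0.05, 0.04 and 0.04. Any overlap of annotated spans counted, and coding clusters with long spans were not left out. The symbol Srsf5, for example, was given as overlapping members that start at chr6:34553267 and chr6:64193073. Among the members, 70 clusters, in 31 sets of up to 5, had the same 6 values to 6 decimals as another member, so 1987 distinct profiles stood behind the 2026 clusters. The class column is not the only place where the word occurs: 1120 clusters of any class were described as pseudogenes, and 263 of these belonged to the class.

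Over the arrays as a whole, medians of the class lay between 5.19 and 5.43. Each array's background was taken as the level that 90% of the 1153 intron controls did not exceed, 6.06 to 6.67. All 8 sensory neuron markers lay above it on every array. So did 4 of 5 Schwann cell, 5 of 5 satellite glia, 4 of 4 fibroblast and 3 of 3 endothelial markers. Of other tissues, 0 of 3 pancreas, 0 of 2 fat, 1 of 4 skeletal muscle (Acta1) and 1 of 3 blood markers (Hba1) did so. All 4 muscle, all 3 blood, both fat and all 3 pancreas markers had a lower mean in diabetic arrays. Among all clusters, 27.9%, 26.6% and 40.9% had a higher mean at signals of 2.06 to 3.46, 3.46 to 4.02 and 4.02 to 6.11. The muscle markers had SDs of 0.66 to 1.27 in control arrays and 0.03 to 0.16 in diabetic arrays. Of the Schwann cell markers 4 of 5 had a lower mean in diabetic arrays. So did 3 of 5 satellite glia markers, whose differences ran from -0.85 (Kcnj10) to 0.19 (Glul). Of the 4 fibroblast markers the collagen genes Col1a1 and Col1a2 differed by -2.02 and -1.59 while Dcn and Pdgfra differed by 0.25 and 0.19. Of the 4 macrophage markers, Cd163, Csf1r and Cd68 differed by 0.90, 0.69 and 0.40 and Aif1 by -0.02, and 1 of them was above background on every array. None of the markers passed the adjusted threshold in limma, and the part of such shifts in the pseudogene signals was not tested. The intron controls deviated from their 6-array mean by a median of -0.06, -0.03 and -0.11 in the diabetic arrays, and by -0.01, -0.03 and 0.15 in the control arrays.

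Signal above background was as common among pseudogene clusters as among coding ones. On the diabetic arrays 41.2%, 40.8% and 41.5% of the members exceeded background, against 38.5%, 39.9% and 35.2% on the control arrays. Control replicate 3 had both the lowest share and the highest background, 6.67. On every array at once, 709 members (35.0%) exceeded it, while 1164 (57.5%) did so on none. The same share was 35.9% of 24753 coding clusters and 2.75% of 25625 non-coding clusters. Of the 311 members that RefSeq lists as pseudogenes, 115 (37.0%) were above background on every array.

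No pseudogene cluster passed an adjusted p of 0.05 in limma (0 of 2026), where 4 of all 68842 clusters did (0.00581%). The smallest adjusted p of a member was 0.529. At an unadjusted p under 0.05, 194 members were higher in diabetic ganglia and 47 lower, which is 9.58% and 2.32% of the members. Over all clusters the shares were 2.73% higher and 5.11% lower. With the further condition of a 1.5-fold difference, 14 were higher and 3 lower, or 0.691% and 0.148%, where all clusters gave 0.375% and 0.619%. After centring each array on its median, the split was 304 higher (15.0%) and 27 lower (1.33%) at p under 0.05, where all clusters gave 5.38% and 2.79%, and 41 and 1 with the fold condition. Without diabetic replicate 2 it was 108 each way (5.33%) at p under 0.05, where all clusters gave 3.73% higher and 6.58% lower. With the fold condition, 52 members were higher without control replicate 2 and 39 without diabetic replicate 1. All clusters were not counted with the fold condition under these settings or after centring. At p under 0.05 alone, 12.7% of members were higher and 4.39% lower without control replicate 2, against 3.38% and 8.88% of all clusters. Without diabetic replicate 1 the shares were 8.93% and 1.09%, against 1.88% and 3.11%.

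More members had a higher mean in diabetic ganglia than a lower one. The counts were 1174 higher (57.9%) and 852 lower, with a median difference of 0.04 and quartiles of -0.08 and 0.19 on the log2 scale. All clusters together leaned the other way, with 38.2% higher and a median of -0.04. Coding clusters stood at 49.5% higher and a median of -0.00, and non-coding ones at 28.5% and -0.07. These directions depended on the scaling: after median centring 73.2% of the members were higher, against 59.2% of all clusters and 70.5% of coding ones, and after quantile normalization it was 67.0%, 51.4% and 57.4%. The 3 diabetic arrays did not overlap with the 3 control arrays in 252 members that were higher (12.4%) and 82 that were lower (4.05%), against 4.96% and 8.32% of all clusters.

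The count of members with a higher mean in diabetic ganglia depended in part on 1 array. Median deviations from the 6-array mean were -0.03, 0.11 and -0.01 in the diabetic arrays and -0.05, 0.01 and -0.02 in the control arrays. Diabetic replicate 2 held the highest value of 742 members (36.6%), and of 15.5% of all clusters. Without it, 1029 members (50.8%) had a higher mean and 997 a lower one, and the median difference was 0.00, while 35.7% of all clusters had a higher mean and their median was -0.06. With each other array left out in turn, the count of higher members was 1153 to 1280.

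**Figure D1:**
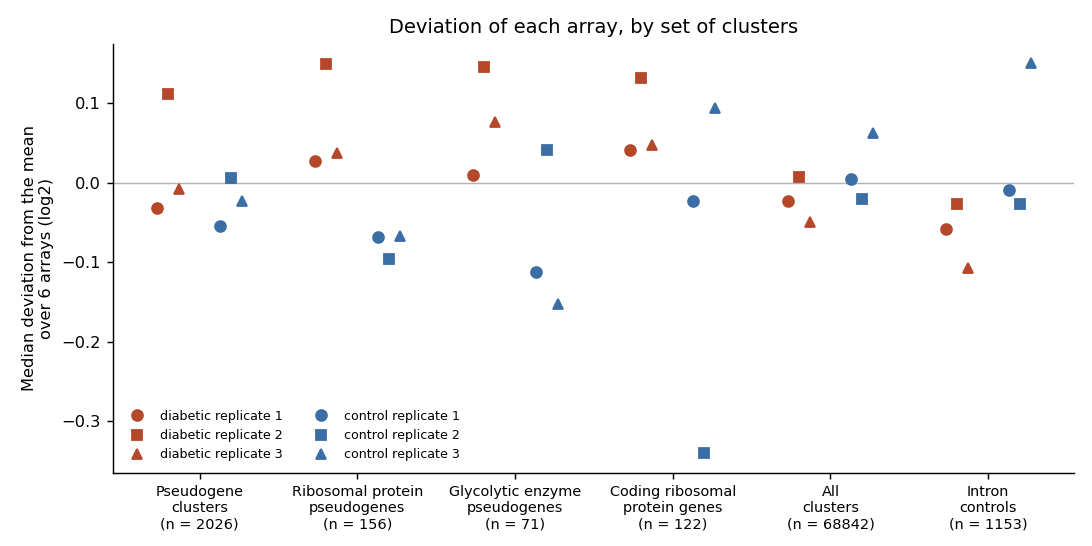
Each point is 1 array, and the vertical axis gives the median, over the clusters of a set, of the deviation of that array from the cluster's mean over 6 arrays (log2). Diabetic replicate 2 stood at 0.11 for all pseudogene clusters, all 3 diabetic arrays lay above all 3 control arrays for the ribosomal protein copies, and control replicate 2 was at -0.34 for the coding ribosomal protein genes.

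Copies of ribosomal protein genes were the largest family with named parents, 156 clusters, and had the highest median difference of the families of at least 5 members. Cytosolic ribosomal proteins build the large and small subunits that carry out translation. Of the 156 copies, 119 had a higher mean in diabetic ganglia and 37 a lower one, the median being 0.18 on the log2 scale, against -0.04 over all clusters. At an unadjusted p under 0.05 there were 33 higher (21.2%) and 1 lower (0.641%), where all clusters gave 2.73% and 5.11%, and 0 passed the adjusted threshold. The groups did not overlap in 55 copies that were higher (35.3%) and 3 that were lower (1.92%), against 4.96% and 8.32% of all clusters. The lower one at p under 0.05 was a copy of Rps21, ENSMUSG00000082276, at a difference of -0.22 between signals under background on every array.

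This family's array medians separated the groups. Median deviations were 0.03, 0.15 and 0.04 in the diabetic arrays and -0.07, -0.10 and -0.07 in the control arrays. Every diabetic array was above every control array, although diabetic replicate 2 was again the highest. Without that array, 109 copies had a higher mean and 47 a lower one, with a median of 0.12. With another array left out, between 114 and 129 of the 156 had a higher mean. After median centring it was 136, and after quantile normalization 131.

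Copies of large subunit proteins numbered 93, of which 77 were higher and 16 lower, with a median difference of 0.20. Copies of small subunit proteins numbered 52, of which 35 were higher and 17 lower, with a median of 0.09. The difference between the subunits was not tested.

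Direction went with signal level among these copies. When all clusters were sorted into 5 bands by their mean over the 6 arrays, the 10 ribosomal protein copies of the dimmest band (2.06 to 3.46) included 1 with a higher mean in diabetic ganglia. In the next bands it was 15 of 28, 29 of 42 and 30 of 32, and in the brightest band (9.70 to 19.76) 44 of 44. The share of all clusters with a higher mean was 27.9%, 26.6%, 40.9%, 63.0% and 49.3% from the dimmest to the brightest band, and so was highest in the fourth. Other pseudogenes gave 35.6%, 37.5%, 63.3%, 73.7% and 56.4%. Coding clusters gave 27.9%, 24.7%, 50.6%, 66.7% and 64.8%. In the brightest band the median difference was 0.27 for the ribosomal protein copies, 0.07 for other pseudogenes, 0.07 for coding clusters and -0.00 for all clusters.

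**Figure D2:**
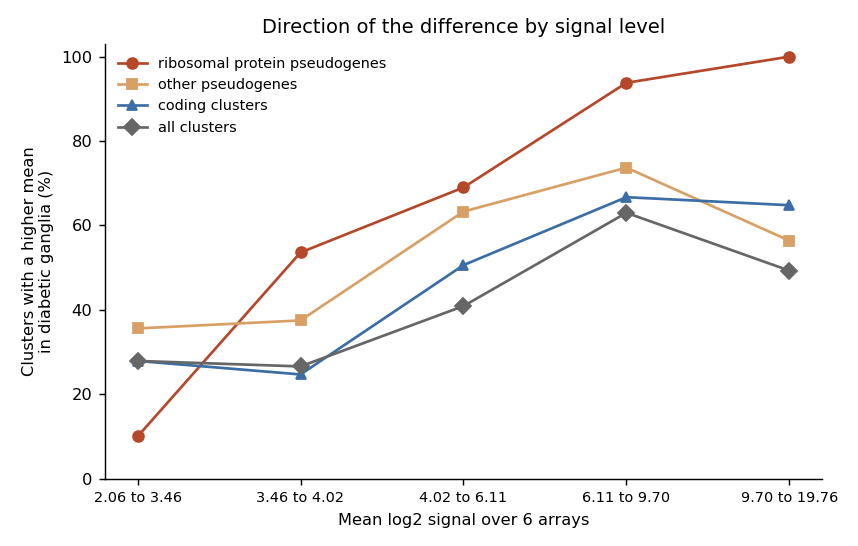
The horizontal axis gives 5 bands of the mean log2 signal over 6 arrays, and the vertical axis the percentage of clusters in a band whose diabetic mean exceeded the control mean. Ribosomal protein copies reached 93.8% and 100% in the upper bands, where all clusters stood at 63.0% and 49.3%.

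The coding ribosomal protein genes leaned the same way by the group means, but not array by array. Of 122 coding clusters of 77 such genes, 110 had a higher mean in diabetic ganglia and 12 a lower one, with a median of 0.15. At an unadjusted p under 0.05, 10 were higher (8.20%, against 2.73% of all clusters) and 0 lower, a count that was 24 without control replicate 3, 3 without control replicate 2, and 4 without diabetic replicate 2 or diabetic replicate 3. Their array medians were 0.04, 0.13 and 0.05 in the diabetic arrays, and -0.02, -0.34 and 0.09 in the control arrays. Control replicate 3 thus lay above 2 of the diabetic arrays and control replicate 2 far below all others. Without control replicate 2 the coding clusters split into 71 higher and 51 lower with a median of 0.03, while the copies split into 114 and 42 with a median of 0.15.

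LOC100912502, described as like 40S ribosomal protein SA (Rpsa, which also serves as a laminin receptor), showed the largest difference of the family. It lies at chr14:51439022-51440052 on the plus strand (Rnor_6.0, as the deposited annotation gives it), with no coding cluster over it. Its signals were 11.86, 12.32 and 11.85 in diabetic arrays and 11.34, 11.12 and 11.29 in control arrays. All diabetic arrays lay above all control arrays, and diabetic replicate 2 was highest. The means were 12.01 ± 0.27 in diabetic and 11.25 ± 0.12 in control arrays (SD, n = 3 each), a difference of 0.76 (SE 0.16, limma adjusted p = 0.534). The coding Rpsa cluster read 10.43, 10.46 and 10.43 in diabetic arrays and 10.17, 9.64 and 10.38 in control arrays (difference 0.37, limma adjusted p = 0.657).

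LOC679625, described as similar to ribosomal protein L19 of the large subunit, lies at chr14:113846868-113847456 on the plus strand, overlapping Ccdc88a on the same strand. It read 8.41, 8.52 and 8.15 in diabetic arrays and 7.46, 8.00 and 7.60 in control arrays. Again the groups did not overlap, and control replicate 2 came closest to the diabetic arrays. The difference was 0.67 (SE 0.17, limma adjusted p = 0.534).

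Rpl13, a large subunit protein, had 8 copies, and all 8 had a higher mean in diabetic ganglia. Only 2 of the 8, on chromosomes 8 and 10, were above background on every array. The copy LOC690174 on chromosome 16 read 4.92, 5.14 and 5.08 in diabetic arrays and 4.32, 4.61 and 4.45 in control arrays. All of these values lay under the intron background, so the difference of 0.59 (SE 0.11, limma adjusted p = 0.531) is between signals not above background. The cluster named Rpl13 on chromosome 10, classed as a pseudogene, read 11.13, 11.21 and 11.53 in diabetic arrays and 10.96, 10.65 and 10.71 in control arrays. Its groups did not overlap (difference 0.52, SE 0.15, limma adjusted p = 0.555). The remaining 6 copies differed by 0.17 to 0.40, and the coding Rpl13 cluster by 0.50 (SE 0.15, limma adjusted p = 0.563).

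Rpl13a, another large subunit protein, had 6 copies, again all with a higher mean in diabetic ganglia. LOC689547 on chromosome 14 read 12.85, 13.09 and 12.88 in diabetic arrays and 12.61, 12.50 and 12.39 in control arrays. No control array reached the lowest diabetic one (difference 0.44, SE 0.13, limma adjusted p = 0.555). LOC100361061, at chr20:43142633-43143301 on the plus strand, read 15.89, 15.93 and 15.90 in diabetic arrays and 15.50, 15.50 and 15.85 in control arrays. Control replicate 3 came close to the diabetic arrays without reaching them (difference 0.29, SE 0.13, limma adjusted p = 0.644). The coding Rpl13a cluster differed by 0.11 (limma adjusted p = 0.806).

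The copies of Rps6, a small subunit protein that is phosphorylated by S6 kinases, differed in direction, but those with a lower mean were all under background. RGD1563690 read 7.70, 7.85 and 7.63 in diabetic arrays and 7.34, 7.40 and 7.16 in control arrays. Its groups did not overlap (difference 0.42, SE 0.12, limma adjusted p = 0.545). ENSMUSG00000098935 read 4.69, 4.41 and 4.46 in diabetic arrays and 4.68, 4.56 and 5.02 in control arrays, all under the intron background (difference -0.23, SE 0.14, limma adjusted p = 0.689). Of the 7 copies, 3 had a higher and 4 a lower mean. The 4 were under background on every array. The 2 copies above it on every array, RGD1563690 and LOC366632, both had a higher mean (differences 0.42 and 0.28).

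Further ribosomal protein copies with a small p included ENSMUSG00000083284, a copy of Rpl15 at chr2:198194661-198195272 on the minus strand. It read 6.91, 6.83 and 6.71 in diabetic arrays and 6.18, 6.26 and 6.41 in control arrays, above the intron background on 4 of 6 arrays. Every diabetic array exceeded every control array (difference 0.53, SE 0.11, limma adjusted p = 0.534). ENSMUSG00000083944, a copy of part of Rpl14 lying opposite to Mtdh on chromosome 7, read 8.68, 8.71 and 8.53 in diabetic arrays and 8.10, 8.23 and 8.08 in control arrays. Here too no control array reached the diabetic ones (difference 0.50, SE 0.12, limma adjusted p = 0.534). The coding clusters of Rpl15 and Rpl14 differed by 0.22 and 0.16 (limma adjusted p = 0.653 and 0.718).

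**Figure D3:**
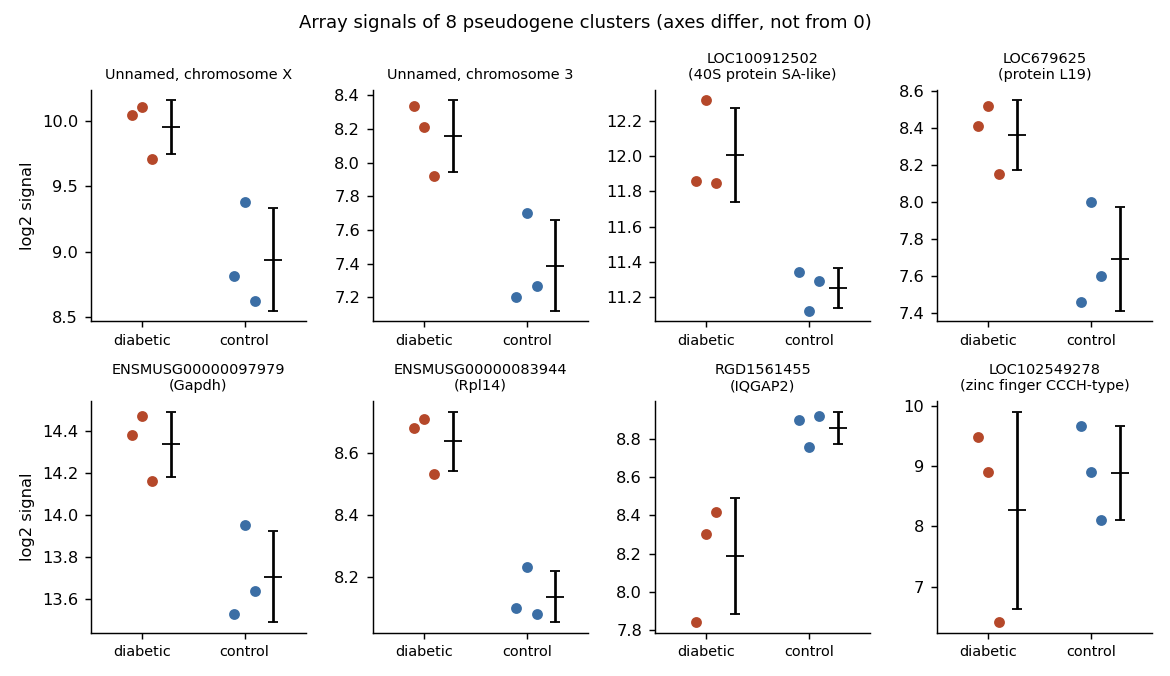
Points are the 3 arrays of each group, in order of replicate number, and the bars are the group mean ± SD of the log2 signal, with a separate vertical axis for each cluster that does not start at 0. The 8 clusters were picked from those of smallest p or largest fold, so little overlap is built into the choice. The groups do not overlap in 7 of the 8 clusters, and in LOC102549278 the diabetic arrays span 6.41 to 9.49. Without overlap were 12.4% of members as higher and 4.05% as lower, against 4.96% and 8.32% of all clusters.

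Copies of glycolytic enzyme genes formed the next family of named parents, 71 clusters, of which 54 had a higher mean in diabetic ganglia and 17 a lower one. The median difference was 0.11. At an unadjusted p under 0.05, 10 were higher (14.1%, against 2.73% of all clusters) and 0 lower. The count of 10 was 22 without control replicate 2, 5 without control replicate 1, diabetic replicate 2 or diabetic replicate 3, and 4 without control replicate 3. The groups did not overlap in 16 copies that were higher (22.5%, against 4.96% of all clusters) and in 0 that were lower. Median deviations were 0.01, 0.15 and 0.08 in the diabetic arrays and -0.11, 0.04 and -0.15 in the control arrays, so that control replicate 2 lay above diabetic replicate 1. Without diabetic replicate 2 the split was 55 higher and 16 lower, and without control replicate 2 it was 56 and 15 with a median of 0.22. Median centring gave 63 higher and 8 lower.

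Gapdh, the glycolytic enzyme often used as a housekeeping reference, was the parent with the most copies on the array, 49, of which 33 were higher and 16 lower. Differences among them ran from -0.20 to 0.63, and 14 were above background on every array. ENSMUSG00000097979, at chr4:161987372-161988552 on the plus strand and opposite to Klrb1a, had the largest difference. It read 14.38, 14.47 and 14.16 in diabetic arrays and 13.53, 13.95 and 13.64 in control arrays. Diabetic and control arrays did not overlap (difference 0.63, SE 0.15, limma adjusted p = 0.534). LOC685400 on chromosome 5 read 19.02, 19.10 and 19.02 in diabetic arrays and 18.82, 18.98 and 18.65 in control arrays (difference 0.23, SE 0.12, limma adjusted p = 0.672). The coding Gapdh cluster read 18.75, 18.79 and 18.76 in diabetic arrays and 18.61, 18.73 and 18.47 in control arrays (difference 0.17, SE 0.12, limma adjusted p = 0.718). In both clusters control replicate 3 was the lowest array.

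Ldha, which interconverts pyruvate and lactate, had 5 copy clusters and all 5 had a higher mean in diabetic ganglia, 3 of them at an unadjusted p under 0.05. Separate clusters with differences of 0.40 and 0.39, both among those 3, bear the symbol LOC691186 on chromosome 7. The 5 are thus not 5 distinct symbols, and 3 of them were above background on every array. The LOC691186 cluster at chr7:14761849-14763056 read 14.79, 14.80 and 14.84 in diabetic arrays and 14.48, 14.46 and 14.33 in control arrays. The groups stood apart by more than the range within either (difference 0.39, SE 0.12, limma adjusted p = 0.555). The coding Ldha cluster differed by 0.20 (limma adjusted p = 0.691). The 4 copies of Pgk1, phosphoglycerate kinase, differed by 0.09 to 0.30, and none of them was above background on every array. The copy of Pgam1, phosphoglycerate mutase, differed by 0.53.

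Heat shock protein copies numbered 23, with 18 higher, 5 lower and a median of 0.12. Hspa8, the constitutive chaperone Hsc70, was the parent of 9, and all 9 were above background on every array and had a higher mean in diabetic ganglia, by 0.06 to 0.27, with 0 at an unadjusted p under 0.05. Among them Hsc70-ps2 on chromosome 18 read 18.70, 18.78 and 18.68 in diabetic arrays and 18.73, 18.75 and 18.29 in control arrays. Its groups overlapped, and control replicate 3 alone was low (difference 0.13, SE 0.15, limma adjusted p = 0.817). The coding Hspa8 cluster read 19.75, 19.79 and 19.78 in diabetic arrays and 19.59, 19.81 and 19.37 in control arrays, again lowest in control replicate 3 (difference 0.18, limma adjusted p = 0.727). LOC681138, a copy of the co-chaperone gene Dnajb6, was the 1 member of this family at p under 0.05 and read 9.84, 9.93 and 9.68 in diabetic arrays and 9.61, 9.45 and 8.95 in control arrays (difference 0.48, SE 0.18, limma adjusted p = 0.607).

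Copies for protein breakdown and for translation factors also had positive medians. The ubiquitin and proteasome family counted 14 higher and 3 lower of 17, with a median of 0.17. LOC688432, a copy of the proteasome subunit gene Psma6, read 7.92, 8.04 and 8.14 in diabetic arrays and 7.57, 7.71 and 7.56 in control arrays. The lowest diabetic array stood above the highest control array (difference 0.42, SE 0.12, limma adjusted p = 0.535). The coding Psma6 cluster showed no such difference, at -0.00 (limma adjusted p = 1.0). LOC689100, a copy of the deubiquitinase gene Usp12, read 12.08, 12.22 and 12.25 in diabetic arrays and 11.66, 12.03 and 11.61 in control arrays (difference 0.41, SE 0.15, limma adjusted p = 0.590). Its parent Usp12 differed by 0.31 (limma adjusted p = 0.6).

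Translation factor copies counted 15 higher and 7 lower of 22, with a median of 0.14. LOC364176, a copy of the RNA helicase gene Eif4a1, read 8.38, 8.68 and 8.11 in diabetic arrays and 7.88, 8.14 and 7.87 in control arrays. The lowest diabetic array fell just under the highest control array (difference 0.42, SE 0.17, limma adjusted p = 0.611). Eif4g2-ps1, a copy of an initiation factor gene, read 14.96, 15.16 and 15.18 in diabetic arrays and 15.19, 15.29 and 15.13 in control arrays (difference -0.10, limma adjusted p = 0.825), and its parent Eif4g2 differed by -0.11.

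Copies of the nuclear RNA-binding proteins called hnRNPs counted 10 higher and 5 lower of 15. Hnrnpa1, a splicing regulator, was the parent of 6, of which 5 were higher. LOC684970 on chromosome 14 read 11.49, 11.52 and 11.12 in diabetic arrays and 10.90, 11.12 and 10.86 in control arrays, with diabetic replicate 3 level with control replicate 2 (difference 0.41, SE 0.15, limma adjusted p = 0.598). Cytoskeleton copies counted 4 higher and 5 lower of 9, with a median of -0.01. Both copies of the tubulin gene Tuba1b in that family bear the symbol LOC689803, on chromosomes 1 and 16. They were higher by 0.48 and 0.27 (limma adjusted p = 0.622 and 0.653), and coding Tuba1b by 0.27 (limma adjusted p = 0.674).

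Respiratory chain copies had the lowest median of the families in the plot of families. Of 16, which stem from subunits of the mitochondrial electron transport complexes and of ATP synthase, 4 had a higher mean in diabetic ganglia and 12 a lower one, with a median of -0.11. The 4 of 16 with a higher mean compare with 38.2% of all clusters and with 27.9% and 26.6% of those in the 2 dimmest bands, and the median signal of the family was 4.0. The median stayed negative, at -0.04, after median centring. Only 2 of the 16 were above background on every array, so most of these differences are between signals at background. The 4 copies of Cycs, the electron carrier cytochrome c, all had a lower mean, by 0.04 to 0.17, and were under background on every array. LOC100909839 and LOC100911051 among them had identical values, so these were 3 distinct profiles.

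ENSMUSG00000080941, a copy of Ndufb4 of complex I, was above background and read 6.85, 7.53 and 7.09 in diabetic arrays and 7.60, 7.49 and 7.20 in control arrays. Its groups overlapped (difference -0.27, SE 0.19, limma adjusted p = 0.720). LOC688615, a copy of Uqcrb of complex III, read 11.17, 11.51 and 11.34 in diabetic arrays and 11.18, 11.36 and 11.35 in control arrays (difference 0.04, SE 0.14, limma adjusted p = 0.938).

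Zinc finger copies, from a large group of mostly DNA-binding proteins, counted 12 higher and 19 lower of 31, with a median of -0.03 that turned to 0.04 after median centring. LOC102550657, described as like a zinc finger protein, read 9.27, 9.53 and 9.31 in diabetic arrays and 9.68, 9.63 and 10.10 in control arrays. Every diabetic array was below every control array (difference -0.44, SE 0.16, limma adjusted p = 0.591). LOC102549278, described as like the antiviral zinc finger protein Zc3hav1, read 9.49, 8.90 and 6.41 in diabetic arrays and 9.66, 8.91 and 8.11 in control arrays. Replicate 3 of each group was low, most of all the diabetic one (difference -0.62, SE 0.73, limma adjusted p = 0.82), and without it the difference was 0.31.

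Receptor copies were near background. Of 13 olfactory receptor copies 7 were higher and 6 lower, with differences of -0.29 to 0.24 and 0 above background on every array. Coding olfactory receptor genes, which act in the nose, counted 324 higher and 931 lower of 1255 clusters, with a median of -0.08. Of 7 vomeronasal receptor copies 4 were higher and 3 lower, and 1, Vom2r-ps40, was above background at 9.08, 9.11 and 9.04 in diabetic arrays and 9.21, 9.08 and 8.58 in control arrays (difference 0.12, SE 0.17, limma adjusted p = 0.847).

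**Figure D4:**
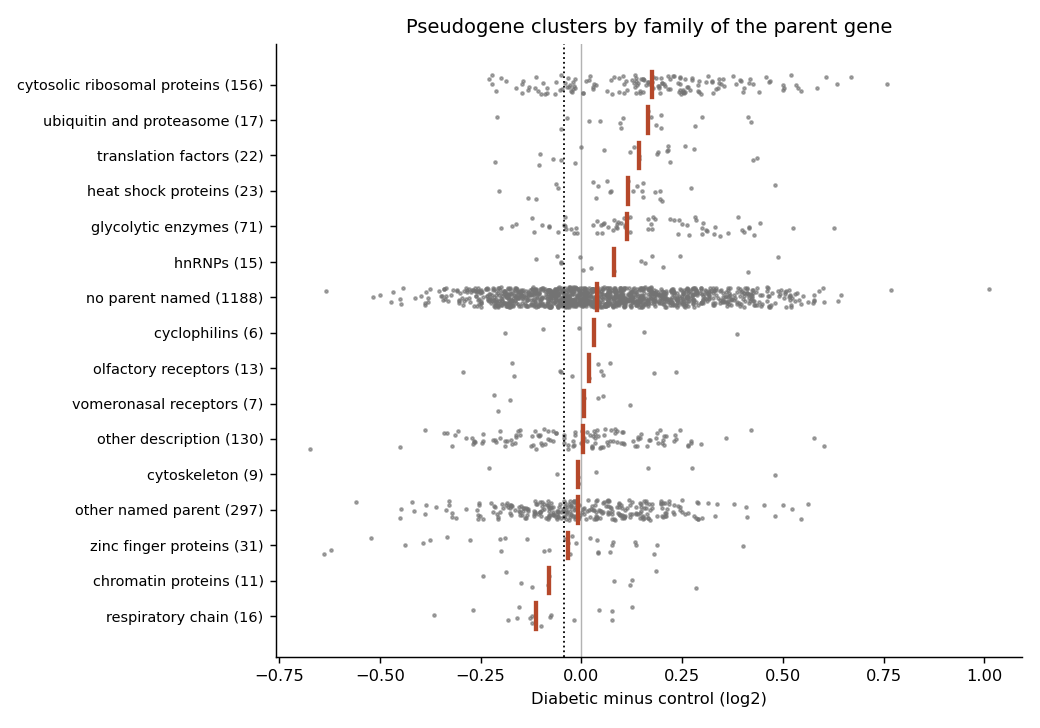
Each dot is 1 pseudogene cluster, placed by its difference, diabetic minus control (log2), in rows for families of at least 5 clusters with the number in brackets. Red bars mark the family medians, from 0.18 for ribosomal protein copies to -0.11 for respiratory chain copies, and the dotted line the median of all 68842 clusters, -0.04.

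Differences of copies and of parents were set side by side over the 616 pairs with a coding parent on the array. Spearman's rho across pairs was 0.38. It was 0.64 over the 197 pairs whose copy was above background on every array and 0.24 over the other 419. Within the ribosomal protein family it was 0.12 over 148 pairs, and within the glycolytic family 0.18 over 65. Pairs are not independent, since they share the 6 arrays and since several copies share a parent and may share probes' targets, so these values are a description. Copy and parent had the same sign in 405 of 616 pairs.

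**Figure D5:**
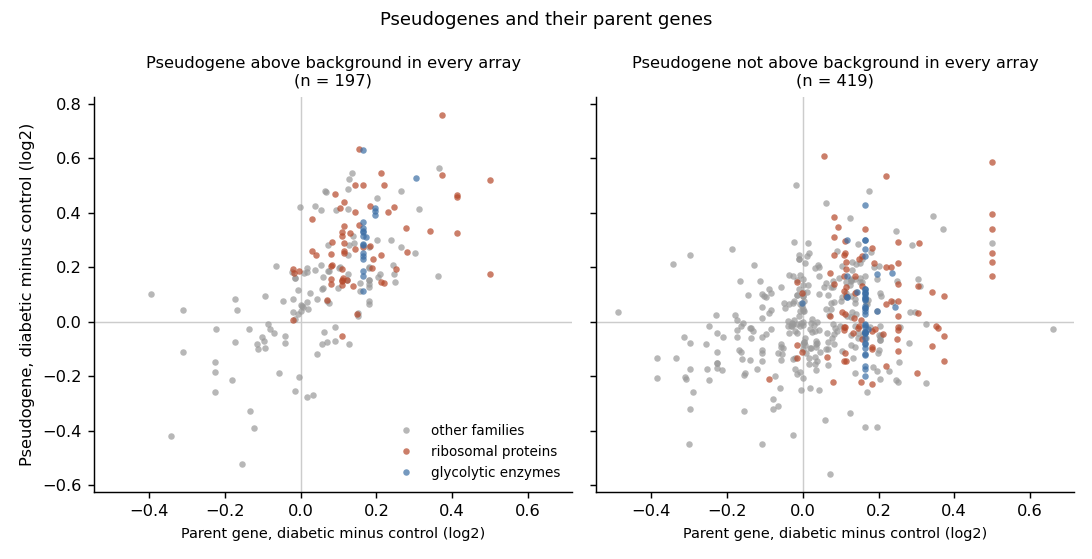
Each dot is a pseudogene cluster with its parent gene, the horizontal axis being the difference of the parent's coding cluster and the vertical axis that of the copy, both diabetic minus control (log2). The cloud runs diagonally where the copy was above background on every array (left, 197 pairs, rho 0.64) and less so elsewhere (right, 419 pairs, rho 0.24), and the column of blue dots is the set of Gapdh copies over 1 parent value.

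Clusters whose symbol and description named no gene or family were the bulk of the class. Of these 1188, 686 had a higher mean in diabetic ganglia and 502 a lower one, with a median of 0.04, and their array medians were -0.05, 0.14 and -0.01 in diabetic arrays and -0.07, 0.02 and -0.03 in control arrays. They made up 1188 of the 2026 members and held 8 of the 17 past p under 0.05 and 1.5-fold. Of these 8, 7 were higher (0.589% of the unnamed clusters) and 1 lower (0.0842%). The shares of all clusters were 0.375% and 0.619%. Ribosomal protein copies held 5 of the 17, all higher (3.21% of these copies).

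The largest difference of the class belonged to an unnamed cluster at chrX:35884513-35885078 on the plus strand, overlapping Ppef1 on the same strand. It read 10.04, 10.10 and 9.71 in diabetic arrays and 8.81, 9.38 and 8.62 in control arrays. The groups did not overlap, with means of 9.95 ± 0.21 in diabetic and 8.94 ± 0.39 in control arrays (SD, n = 3 each), or 2.01-fold (difference 1.01, SE 0.21, limma adjusted p = 0.534). A second unnamed cluster, at chr3:103880027-103880590 on the minus strand and opposite to Katnbl1, read 8.34, 8.21 and 7.92 in diabetic arrays and 7.20, 7.70 and 7.27 in control arrays. It did not overlap between the groups either (difference 0.77, SE 0.17, limma adjusted p = 0.534). In both clusters control replicate 2 was the control array nearest to the diabetic ones.

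RGD1561455, described as similar to the scaffold protein IQGAP2, had the largest negative difference. It lies at chr18:57443699-57445172 on the minus strand and read 7.84, 8.30 and 8.42 in diabetic arrays and 8.90, 8.76 and 8.92 in control arrays. The groups did not overlap, with means of 8.19 ± 0.30 in diabetic and 8.86 ± 0.08 in control arrays (SD, n = 3 each, difference -0.67, SE 0.16, limma adjusted p = 0.534). An unnamed cluster at chr2:59619213-59619592 on the minus strand read 15.53, 16.33 and 15.86 in diabetic arrays and 16.28, 16.58 and 16.77 in control arrays. Diabetic replicate 2 overlapped the controls (difference -0.63, SE 0.22, limma adjusted p = 0.58).

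ENSMUSG00000085608, a zinc finger pseudogene measured by 6 probes, read 4.77, 5.46 and 5.57 in diabetic arrays and 5.79, 6.08 and 5.85 in control arrays, under the intron background throughout (difference -0.64, SE 0.20, limma adjusted p = 0.572). LOC100909561, whose current RefSeq name is Ybx1-ps4, is a copy of the gene of the RNA-binding protein YB-1. It read 8.74, 9.30 and 9.06 in diabetic arrays and 9.55, 9.17 and 9.65 in control arrays (difference -0.42, SE 0.18, limma adjusted p = 0.637). Its parent Ybx1 read 11.60, 12.13 and 11.98 in diabetic arrays and 12.35, 12.04 and 12.34 in control arrays (difference -0.34, limma adjusted p = 0.654). In both copy and parent, diabetic replicate 1 was lowest and the groups overlapped through control replicate 2. The 8 clusters of smallest p among the lower ones above background differed by -0.67 to -0.32, and of the 10 clusters of highest mean, 7 were higher and 3 lower, with differences of -0.21 to 0.31.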

How the data were processed

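The authors deposited 1 log2 signal for each transcript cluster and array, made with SST-RMA at the gene level per the file headers and with RMA per the submitters' processing notes. RMA subtracts background, equalises probe distributions between arrays and summarises probes, and it can compress differences of dim clusters. Of 70580 probe sets, 1738 controls were left out of all tests. The table and the series matrix hold the same values, and the authors' detection calls, which were A throughout, were not used. No reference genome was used. Coordinates are those of the deposited annotation, whose row text names Rnor_6.0 for 289 members. Sequences and current names came from RefSeq tables on GRCr8.

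Diabetic minus control was fitted with limma 3.58.1 in R 4.3.3 (group as the only term, eBayes with an intensity trend) over all 68842 clusters, with Benjamini-Hochberg adjustment over all of them and a threshold of 0.05. A looser count took an unadjusted p under 0.05 and at least 1.5-fold. With 3 against 3 animals the smallest p of a two-sided exact permutation test is 0.1, so none was used. The fit was tested on simulated data. Errors are the SD over a group's 3 arrays and the SE from limma, and precision is limited by how few arrays there were.

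Families and parents were read from symbols and descriptions. Members, families and lists were chosen with earlier results of these data known, and the hnRNP and zinc finger families were added after the files were seen. Clusters to name were drawn from the 10 of highest mean and, in each direction, the 4 of largest fold. In each direction the 8 of smallest p were added, among those at least 1.2-fold different whose higher group mean exceeded the array-averaged background. A higher member could thus pass through its diabetic arrays alone. In families of at least 5 the 2 of highest mean and the 2 of smallest p were added, and the parents of all these. Not all of these are named in the text, and of the loci without a symbol only those described on chromosomes X, 3 and 2 are. Copies of Hspa8, Rpl13, Rpl13a, Rps6, Ldha, Pgk1, Pgam1 and Cycs, the Rps21 copy and the copies with printed sequences were named after their values were seen. A parent was represented by its coding cluster of highest mean.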

Additional observations from a re-analysis of the deposited data

How the results depend on the processing

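No pseudogene cluster passed adjusted p 0.05 under any alternative fit. Median centring gave 41 higher and 1 lower past p under 0.05 and 1.5-fold, 304 and 27 past p under 0.05 alone, a median difference of 0.1157, and 26.8% as the share of pseudogene clusters with a lower mean in diabetic ganglia. Quantile normalization gave 9 higher past 1.5-fold, and a fit without moderation 8 higher and 1 lower past 1.5-fold. Array weights gave 71 lower at p under 0.05 (3.5%, against 7.17% of all clusters). At p under 0.05, the filter at the median level left 23 lower (1.57%, against 4.88% of all clusters left). The filter at the intron 90th percentile left 123 higher (15.4%) and 7 lower (0.878%), against 6.55% and 4.18% of all clusters left. The median difference was 0.1326 there, and both filters test fewer clusters. With arrays left out in turn, 11 to 52 members were higher and 0 to 10 lower past 1.5-fold. At p under 0.05, 108 to 257 were higher (5.33% to 12.7%) and 21 to 108 lower (1.04% to 5.33%). All clusters then gave 1.87% to 3.73% higher and 2.84% to 8.88% lower. Medians were 0.0044 to 0.0686, and 36.8% to 49.2% of members had a lower mean. The 52 came without control replicate 2, the 10 and the 108 each way without diabetic replicate 2, and 39 higher past 1.5-fold without diabetic replicate 1. A pair of restrictions was chosen after seeing the data: 1 row per set of equal signals changed no count by over 1.5 times, and members that RefSeq lists as pseudogenes, a smaller set, gave 34 higher and 4 lower at p under 0.05 and 0 each way past 1.5-fold. Taking every cluster described as a pseudogene gave 3 higher past 1.5-fold, and the median log2 difference of pseudogene clusters so defined was -0.0258. The share above background was 65.7% at the median of the intron controls and 28.2% at their 95th percentile. LOC102549278 ranged from -1.2326 without diabetic replicate 1 to 0.3079 without diabetic replicate 3, where its sign turned. The causes of these shifts were not tested. Counts past 1.5-fold over all clusters were not made under these alternatives. With the replicate number as a block, 183 members were higher (9.03%) and 50 lower (2.47%) at p under 0.05. All clusters gave 2.21% and 4.59% in that fit. Deviations of same-numbered arrays from their group means had correlations of 0.041, -0.119 and -0.132. Such deviations add up to 0 within a group, so these values cannot settle whether the numbers paired the rats.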
